A study of Mus musculus with 9 samples.

Results

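The genes described here are 10 signals, with a receptor among them, through which a prostate tumour cell can address immune and stromal cells: Il33 and its receptor Il1rl1, the chemokines Cxcl1, Cxcl5, Cxcl12, Ccl2 and Ccl7, the growth factor Csf1, and Il6 and Lif of the IL-6 family. Il33 was chosen by its large fall after silencing of Nsd2 in these same libraries, so its values are given as a description with no test. The other members were named as tumour cell cytokines. Of the 10 genes, 8 are analysed here, among 12842 genes in the table of values, and Cxcl12 and Il6 are not analysed here. All 8 passed the filter on low values in each comparison.

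IL-33 is a cytokine of the IL-1 family that epithelial cells store in the nucleus and release on damage, and it acts through ST2, the product of Il1rl1, together with the accessory chain Il1rap. CXC chemokines such as Cxcl1 and Cxcl5 draw neutrophils through Cxcr2, and CC chemokines such as Ccl2 and Ccl7 draw monocytes through Ccr2. Csf1 keeps macrophages alive and Lif signals through gp130 to STAT3, and prostate tumours are known to use several of these signals to attract myeloid cells.

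RNA-seq profiles of cultured NPK cells were compared in 3 groups of 3 libraries. This mouse prostate cancer line was isolated from lung metastases of NPK mice, a genetically engineered model in which an inducible Cre acts in prostate epithelium and a YFP reporter marks recombined cells. All groups share this background. Control cells were compared with cells in which Nsd2, a histone H3 lysine methyltransferase, was silenced with shRNA (shNsd2), and with cells that received a compound named MCTP in the labels. The study's silencing work used a lentiviral control shRNA against luciferase, but whether these control libraries carried it, which of the Nsd2 shRNAs each library received, and how much MCTP was given for how long are not given in the sources used here. The titles number the MCTP compounds 39, 40 and 41 in the 3 libraries, and source names of the shNsd2 libraries read Nsd2, Nsd3 and Nsd4 in turn, so libraries were grouped by the shared start of their titles. The cells form a single line grown without host tissue, and nothing in the labels says that replicates came from separate cultures, so p-values measure only the spread between these libraries, which may be technical. Values are the deposited log2 expression values. They carry no read counts, so depth is unknown, and their transform draws weakly expressed genes together, so that fold changes of such genes are understated.

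The silenced gene was checked first. Nsd2, listed under its older symbol Whsc1 (ENSMUSG00000057406.8), had log2 expression of 12.48, 12.43 and 12.42 in control, 11.56, 11.61 and 11.68 in shNsd2, and 12.15, 12.21 and 12.07 in MCTP libraries. Every shNsd2 library lay below every MCTP library, and every MCTP library below every control library. The log2 fold change of Nsd2 was -0.83 with shNsd2 (limma adjusted p = 2.26e-06) and -0.30 with MCTP (adjusted p = 0.00562). Corrected for the GC content of transcripts, the MCTP value was -0.12 and its call was lost (adjusted p = 0.0775, range over alternatives 2.77e-06 to 0.0775). Libraries also differed by base composition: within its group, the deviation of control 1, MCTP 2 and shNsd2 3 fell with the GC content of transcripts (Spearman rho across 11952 genes of -0.60, -0.72 and -0.66), whereas it rose in the other 6 libraries (rho between 0.37 and 0.70). By this measure these 3 libraries stand apart within their groups, and values without them are given where they bear on a result. Deviations from a group mean cancel out, so opposite signs within a group are largely built in. Leaving out these libraries also tends to lower the spread within groups by construction, so adjusted p from that fit may be too small. Without centring on groups, rho was -0.61, -0.33 and -0.19 in control and 0.46, -0.31 and 0.56 in MCTP libraries. It was 0.10, 0.13 and -0.29 in shNsd2 libraries, so GC content also differed between groups, mostly between control and MCTP.

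Markers of the labelled cell type were high. Of 7 epithelial markers, 6 were analysed, and the keratins Krt8, Krt19 and Krt18 had control means of 16.28, 16.20 and 15.38 on the log2 scale and Cdh1 had 11.77, while Epcam lay near the bottom of the scale at 3.55. Krt14 moved most, with means of 8.91 in control, 9.69 in shNsd2 and 10.09 in MCTP cells (limma log2 fold change 0.78, adjusted p = 2.22e-05 and 1.19, adjusted p = 0.000274). Cdh1 was lower in both treated groups (-0.20, adjusted p = 0.00368 with shNsd2, and -0.34, adjusted p = 0.00325 with MCTP). Krt19 was lower with shNsd2 (-0.34, adjusted p = 0.00257) and higher with MCTP (0.37, adjusted p = 0.0392), the latter lost without control 1, 2 or 3 (0.130, 0.0783 and 0.0898) or MCTP 1 or 3 (0.128 and 0.0992). Krt8 was lower with shNsd2 (-0.21, adjusted p = 0.0193), a call lost without control 2 or 3 (0.0748 and 0.0504) or shNsd2 3 (0.0523). Of the prostate genes, Hoxb13 was at 10.28 and Tmprss2 at 6.89 in control, and Pbsn and Msmb were not analysed here. Tmprss2 was lower with shNsd2 (-0.17, limma adjusted p = 0.0115) and higher with MCTP (0.31, adjusted p = 0.00493), and Hoxb13 was called in neither. Of 10 leukocyte markers only Cd68 was analysed, so no other marker is at hand to tell whether its level reflects leukocytes in this cultured line. Cd68 was 6.50, 6.51 and 6.60 in control, 6.78, 6.78 and 6.72 in shNsd2, and 7.20, 7.15 and 7.44 in MCTP libraries, a rise in both treated groups (limma log2 fold change 0.23, adjusted p = 0.00227 for shNsd2, and 0.73, adjusted p = 0.000688 for MCTP). The part of other cell types in the results below was not tested, and fewer cells of a type and less RNA per cell cannot be told apart in such libraries. Of 6 endothelial markers, only Cdh5 was analysed, at 3.50 in control cells and under the filter. Of 7 fibroblast markers, 3 were analysed, led by Col1a1 at 8.20, and their summed log2 level was 8.34, 8.23 and 8.33 in control, 8.01, 8.07 and 8.02 in shNsd2, and 8.07, 8.04 and 7.90 in MCTP libraries. This fall was that of Col1a1 (-0.30, limma adjusted p = 0.00111 with shNsd2, and -0.33, adjusted p = 0.0105 with MCTP). Pdgfra, just above the filter at 3.99, was higher with shNsd2 (0.13, adjusted p = 0.00161), but it shares 456 and 166 bases of exon with genes on the other strand and is uncertain. Dcn, under the filter, had means of 2.33, 2.33 and 2.48 in control, shNsd2 and MCTP cells.

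Il33 (ENSMUSG00000024810.9) was the most strongly expressed of the 8 genes per length. Its control level was 9.63 on the log2 scale per kilobase of exon, above 84.4% of the 12513 genes with a known length. Lif followed at 9.15 per kilobase, then Csf1 at 7.10, Ccl2 at 6.50, Cxcl1 at 6.45, Ccl7 at 5.65, Cxcl5 at 3.56 and the receptor Il1rl1 at 1.99. Ccl2 and Cxcl1 differ in this order by less than the SD among control libraries (0.224 and 0.120). Cxcl5 and Il1rl1 thus lay in the low range per length, above 11.4% and 4.56% of genes. The transform may understate changes of weakly expressed genes, though Ccl9, at 3.52 per kilobase, rose by 0.59 on the log2 scale with MCTP.

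Il33, the alarmin of the group, had log2 expression of 11.20, 11.17 and 11.10 in the control libraries, 10.82, 10.87 and 10.78 in MCTP libraries, and 9.94, 9.95 and 10.04 in shNsd2 libraries. The 3 groups formed separate steps with no overlap, control highest, MCTP between and shNsd2 lowest. The mean was 11.16 ± 0.051 in control, 10.82 ± 0.045 in MCTP and 9.98 ± 0.056 in shNsd2 libraries (SD, n = 3 each). As a share of the control mean on the linear scale, Il33 mRNA was 43.1%, 43.2% and 46.2% in the shNsd2 libraries and 79.0%, 81.9% and 77.0% in the MCTP libraries. The shNsd2 libraries thus held less than any MCTP library. The difference from control was -1.18 on the log2 scale in shNsd2, rank 8 among the falls of 12205 genes, and -0.33 in MCTP, rank 1169 of 12216. The shNsd2 value is the one that chose the gene, and the same control libraries enter the MCTP difference, so neither is tested. Corrected for the GC content of transcripts, the differences were -1.12 and -0.18, and without the 3 libraries that stand apart they were -1.19 and -0.33. In GRCm38, Il33 spans chr19:29925114-29960718 on the + strand and shares no exon sequence with another annotated gene.

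Il1rl1 (ENSMUSG00000026069.9), the IL-33 receptor, was listed at 4.83, 4.73 and 4.77 in control, 4.72, 4.70 and 4.75 in shNsd2, and 4.76, 4.80 and 4.76 in MCTP libraries. The groups overlapped, and no library stood out. The log2 fold change was -0.052 with shNsd2 (95% interval -0.12 to 0.019, limma adjusted p = 0.205) and -0.0010 with MCTP (-0.079 to 0.077, adjusted p = 0.982). After GC correction the MCTP value turned to 0.13 with an adjusted p of 0.0483 (range over alternatives 0.0483 to 0.987).

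**Figure D1:**
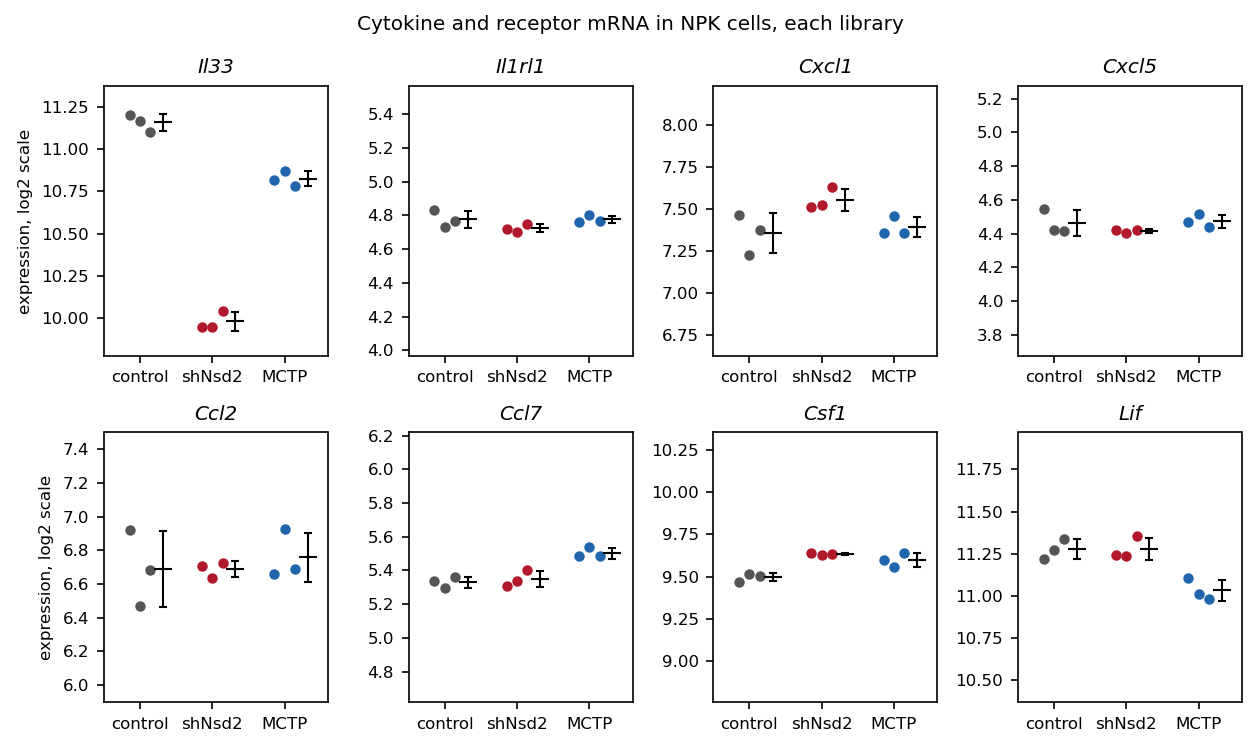
Log2 expression of the 8 analysed cytokine and receptor genes in each library of control, shNsd2 and MCTP cells (points), with the mean and SD of each group (bars, n = 3); every panel spans the same height on the log2 scale. Il33 falls in separate steps (means 11.16, 10.82 and 9.98 in control, MCTP and shNsd2), Ccl7 is highest in MCTP libraries and Lif is lowest there.

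The genes whose levels over the 9 libraries were most like those of Il33, among 3519 genes that span at least 0.5 on the log2 scale from the lowest to the highest library, were Efha1 (Pearson r = 0.997), Col4a5 (0.995), Rcn1 (0.995), Bhlhe41 (0.994) and Whsc1, the silenced gene itself (0.994). Efha1, the older symbol of Micu2, encodes a regulator of mitochondrial calcium uptake, Col4a5 a chain of basement membrane collagen, Rcn1 a calcium-binding protein of the endoplasmic reticulum and Bhlhe41 a transcriptional repressor. Mean log2 expression in control, MCTP and shNsd2 cells was 10.98, 10.85 and 10.52 for Efha1 and 8.74, 8.46 and 7.79 for Col4a5. It was 11.53, 11.31 and 10.69 for Rcn1 and 10.40, 10.19 and 9.76 for Bhlhe41. Like Il33, each was highest in control and lowest in shNsd2 cells. The 9 libraries fall into 3 groups, so this likeness describes steps between groups and has no p. Il33 was chosen for its fall in the libraries in which Nsd2 was silenced, so its likeness to Whsc1 is partly built in. A link between them was not tested. Likeness to the other members was not computed, since none has group means that span 0.5.

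Against control, 47.8% of 12205 genes tested were called with shNsd2 at an adjusted p under 0.05 in limma, 23.1% higher and 24.8% lower, so a call alone sets no gene apart. Of the 7 members tested (Il33 left out), 2 were called, Cxcl1 and Csf1, both higher. With MCTP, 35.2% of 12216 genes were called, 18.0% higher and 17.2% lower, and again 2 of 7 members, Ccl7 higher and Lif lower. The MCTP count of 4305 genes depends on single libraries: it was 2363, 2157 and 2451 without control 1, 2 or 3, 2029 and 2830 without MCTP 1 or 3, and 7372 without MCTP 2, while the members called were 1 without control 2 or 3. Directly between shNsd2 and MCTP libraries, 43.2% of 12217 genes were called, 20.6% higher and 22.6% lower in shNsd2, and 3 of 7 members: Cxcl1 and Lif higher and Ccl7 lower in shNsd2. That count of 5276 genes was 3361 without MCTP 1 and 3424 and 3414 without shNsd2 2 or 3, and the members called were 1 without shNsd2 1 or 2. With shNsd2, 1 member was called without control 2, control 3 or shNsd2 3, and none (0) without shNsd2 1 or 2. These shares of members are near or below the background and are no result about the members. The shNsd2 and MCTP comparisons use the same control libraries.

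Cxcl1 (ENSMUSG00000029380.10), a neutrophil chemokine, had log2 expression of 7.47, 7.23 and 7.38 in control, 7.51, 7.52 and 7.63 in shNsd2, and 7.36, 7.46 and 7.36 in MCTP libraries. All shNsd2 libraries lay above all control and MCTP libraries, by a narrow margin over control 1, and the MCTP libraries lay among the controls. The log2 fold change with shNsd2 was 0.20 (standard error 0.064, limma adjusted p = 0.0321), which on the linear scale is 114% ± 5.21 of the control mean (SD, n = 3). With MCTP it was 0.034 (95% interval -0.13 to 0.20, adjusted p = 0.729), or 0.14 under GC correction (0.0748, range 0.0748 to 0.996), and the difference between shNsd2 and MCTP was 0.16 (standard error 0.055, adjusted p = 0.0473). The shNsd2 call was lost without control 2 (0.13, adjusted p = 0.105), control 3 (0.21, 0.0575), shNsd2 1 (0.22, 0.0544), shNsd2 2 (0.21, 0.0591) or shNsd2 3 (0.16, 0.0978), and over all alternatives the adjusted p ran from 0.00155 to 0.285. The difference between treatments was called in 6 of 14 alternatives and was lost without MCTP 1 or 3 (0.14 and 0.15, adjusted p = 0.150 and 0.105) and without shNsd2 1, 2 or 3 (0.18, 0.18 and 0.12, adjusted p = 0.0830, 0.0983 and 0.170), within a range of 0.00893 to 0.170.

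Cxcl5 (ENSMUSG00000029371.5), which acts on the same receptor, was listed at 4.55, 4.42 and 4.41 in control, 4.42, 4.40 and 4.42 in shNsd2, and 4.47, 4.52 and 4.44 in MCTP libraries. The groups overlapped and the highest value was that of control 1, a library that stands apart. The log2 fold change was -0.048 with shNsd2 (95% interval -0.13 to 0.035, limma adjusted p = 0.307) and 0.012 with MCTP (-0.085 to 0.11, adjusted p = 0.835). Under GC correction the MCTP value was 0.19 (adjusted p = 0.0197, range 0.0197 to 0.926).

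Ccl2 (ENSMUSG00000035385.5), the main monocyte chemoattractant, was the least even member within the control and MCTP groups (SD 0.224 and 0.146), though not within shNsd2 (0.046). Its log2 expression was 6.92, 6.47 and 6.68 in control, 6.71, 6.64 and 6.72 in shNsd2, and 6.66, 6.93 and 6.69 in MCTP libraries. Control 1 and MCTP 2, both libraries that stand apart, were the highest, and control 2 was the lowest of all. The log2 fold change was -0.00052 with shNsd2 (95% interval -0.21 to 0.21, limma adjusted p = 0.997) and 0.069 with MCTP (-0.20 to 0.34, adjusted p = 0.664), and without the 3 libraries it was 0.097 and 0.099 (adjusted p = 0.155 and 0.158, ranges 0.148 to 0.997 and 0.134 to 0.909). Under GC correction it was 0.060 and 0.18.

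Ccl7 (ENSMUSG00000035373.2), its neighbour in function and on chromosome 11 (Ccl2 from 82035571 to 82037453, Ccl7 from 82045712 to 82047525 of GRCm38, both on the + strand), had log2 expression of 5.34, 5.29 and 5.36 in control, 5.31, 5.34 and 5.40 in shNsd2, and 5.49, 5.54 and 5.48 in MCTP libraries. All MCTP libraries lay above all others, and control and shNsd2 libraries overlapped. Ccl7 rose with MCTP by 0.17 (standard error 0.036, limma adjusted p = 0.00920), to 113% ± 2.59 (SD, n = 3) of the control mean on the linear scale, while the log2 fold change with shNsd2 was 0.019 (95% interval -0.060 to 0.098, adjusted p = 0.675). Between the treatments the difference was -0.15, shNsd2 being lower (standard error 0.037, adjusted p = 0.0133). The MCTP value ran from 0.10 under quantile normalization (adjusted p = 0.0503, range 0.00207 to 0.0503) to 0.32 under GC correction. The difference between treatments was lost under quantile normalization (-0.077, adjusted p = 0.118) and without shNsd2 1 or 2 (-0.13 and -0.15, adjusted p = 0.0564 and 0.0552), within a range of 0.00276 to 0.118, and it was -0.24 under GC correction. Cd68 was also highest in the MCTP libraries, and its part in the Ccl7 values was not tested.

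Csf1 (ENSMUSG00000014599.4), the macrophage growth factor, had log2 expression of 9.47, 9.52 and 9.50 in control, 9.64, 9.63 and 9.64 in shNsd2, and 9.60, 9.56 and 9.64 in MCTP libraries. Every shNsd2 and every MCTP library lay above every control library, and the treated groups overlapped. Csf1 rose with shNsd2 by 0.14 (standard error 0.037, limma adjusted p = 0.0137), to 110.0% ± 0.476 (SD, n = 3) of the control mean. With MCTP the log2 fold change was 0.10 (95% interval -0.019 to 0.22, adjusted p = 0.158), or 0.018 under GC correction, and the difference between the treatments was 0.037 (-0.072 to 0.15, adjusted p = 0.544). The shNsd2 call was lost without shNsd2 1 (0.14, adjusted p = 0.0526) or shNsd2 2 (0.14, 0.0531) and with a replicate block (0.0636). It was also lost with only the library that names Nsd2 in both labels, and it was made in 11 of 15 alternatives.

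Lif (ENSMUSG00000034394.8), the second most strongly expressed member per length, had log2 expression of 11.22, 11.27 and 11.34 in control, 11.24, 11.24 and 11.35 in shNsd2, and 11.10, 11.01 and 10.98 in MCTP libraries. All MCTP libraries lay below all others, and control and shNsd2 libraries overlapped throughout. Lif fell with MCTP, by a log2 fold change of -0.24 (standard error 0.056, limma adjusted p = 0.0151), to 84.5% ± 3.74 (SD, n = 3) of the control mean on the linear scale. With shNsd2 the log2 fold change was 0.0021 (95% interval -0.10 to 0.11, adjusted p = 0.974). The difference between the treatments was 0.24, Lif being higher in shNsd2 (standard error 0.055, adjusted p = 0.0106), and it was called in each of 14 alternatives (adjusted p between 0.00343 and 0.0493). The MCTP call was lost without control 2 (-0.24, adjusted p = 0.0634) or control 3 (-0.21, 0.0674) and with only the library numbered 39 (-0.17, 0.0769), within a range of 9.23e-05 to 0.0769.

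Promoter sequence was found for 5 of the 8 genes, with 7 starts, in RefSeq promoters on GRCm38.p6, each covering 250 bases before and 50 after a start. They were searched on both strands for an NF-kB type motif of 10 letters, an AP-1 type motif (TGANTCA, the same on both strands) and the TATA box (TATAAA, in reverse TTTATA). Of 32851 promoters of this length, 0.411% held the first, 7.81% the next and 13.6% the last. The promoters of both members called with shNsd2, Cxcl1 and Csf1, each held the NF-kB type motif, and that of Lif held an AP-1 type motif. Both Il33 promoters held the letters TATAAA, the downstream one from -29 to -24 before its start. In the upstream one these letters lay from -203 to -198, far from its start, and are not named a TATA box of that start. The Il1rl1 promoters held none of the motifs searched. A match describes the letters only and is not a measured site. Promoter sequence was not found for Cxcl5, Ccl2 and Ccl7, which were not called with shNsd2, so a link between motif and call was not tested. The sequences are shown because they belong to Il33 and to 3 of the members called, on the strand of the gene, with the motif in capitals. The Il33 promoters lie at chr19:29924863-29925162 and chr19:29945540-29945839 (+ strand), that of Cxcl1 at chr5:90890995-90891294 (+), that of Csf1 at chr3:107760420-107760719 (-) and that of Lif at chr11:4257318-4257617 (+).
Il33 upstream start: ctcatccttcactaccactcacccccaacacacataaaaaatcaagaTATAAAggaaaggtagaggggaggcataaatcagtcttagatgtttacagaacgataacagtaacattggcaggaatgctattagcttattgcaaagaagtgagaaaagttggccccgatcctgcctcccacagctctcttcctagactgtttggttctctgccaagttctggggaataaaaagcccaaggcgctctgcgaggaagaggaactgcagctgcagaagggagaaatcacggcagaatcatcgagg
Il33 downstream start: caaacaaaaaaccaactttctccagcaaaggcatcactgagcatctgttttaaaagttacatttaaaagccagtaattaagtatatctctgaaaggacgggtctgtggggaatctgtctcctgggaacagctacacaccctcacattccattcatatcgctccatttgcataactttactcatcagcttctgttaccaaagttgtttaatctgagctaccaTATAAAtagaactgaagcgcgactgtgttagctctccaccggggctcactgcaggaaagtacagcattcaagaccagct
Cxcl1: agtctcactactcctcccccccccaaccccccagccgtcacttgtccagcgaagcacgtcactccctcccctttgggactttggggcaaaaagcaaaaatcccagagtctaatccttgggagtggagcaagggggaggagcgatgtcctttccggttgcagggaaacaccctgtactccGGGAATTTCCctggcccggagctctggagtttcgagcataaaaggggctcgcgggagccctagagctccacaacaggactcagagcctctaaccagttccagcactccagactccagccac
Csf1: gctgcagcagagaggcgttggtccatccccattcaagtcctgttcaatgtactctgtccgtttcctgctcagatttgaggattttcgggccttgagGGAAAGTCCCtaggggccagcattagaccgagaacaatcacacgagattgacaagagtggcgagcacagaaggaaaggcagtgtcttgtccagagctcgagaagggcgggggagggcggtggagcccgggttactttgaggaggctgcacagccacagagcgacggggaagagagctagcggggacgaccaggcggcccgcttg
Lif: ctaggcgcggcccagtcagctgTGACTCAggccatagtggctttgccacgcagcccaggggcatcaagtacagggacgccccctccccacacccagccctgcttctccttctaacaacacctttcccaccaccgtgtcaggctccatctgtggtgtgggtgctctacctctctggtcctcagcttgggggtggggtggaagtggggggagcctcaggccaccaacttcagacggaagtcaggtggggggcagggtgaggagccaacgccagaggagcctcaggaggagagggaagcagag

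Genes of the surrounding pathways were taken from fixed lists, with Il33 left out. With shNsd2, 7 of 14 genes of the IL-1 family tested were called, 3 higher and 4 lower, with a median log2 fold change of -0.0046, beside 47.8% and a median of 0.0020 over all genes. Il1rn, the secreted antagonist of the IL-1 receptor, had log2 expression of 13.63, 13.74 and 13.75 in control, 13.32, 13.25 and 13.33 in MCTP, and 12.89, 12.94 and 12.91 in shNsd2 libraries. Its groups were separate and in the same order as those of Il33. Il1rn fell with shNsd2 (-0.80, standard error 0.041, limma adjusted p = 2.66e-06) and with MCTP (-0.41, adjusted p = 0.00181, and -0.23 with 0.0820 under GC correction), and the difference between the treatments was -0.39 (adjusted p = 0.000670). Il1r1, the signalling receptor of IL-1, fell with shNsd2 by 0.45 on the log2 scale (adjusted p = 0.000136) and with MCTP by 0.25 (adjusted p = 0.0365). The latter call was lost without control 1, 2 or 3 (adjusted p = 0.125, 0.0743 and 0.0880) and without MCTP 1 or 3 (0.110 and 0.0904), and under GC correction the MCTP value was -0.13 (adjusted p = 0.0339). Il1rap, the accessory chain that the IL-33 and IL-1 receptors share, stood at 7.01, 6.90 and 6.86 in control and 6.62, 6.47 and 6.54 in shNsd2 libraries, groups that did not overlap (-0.38, adjusted p = 0.000466). Its MCTP libraries, at 6.70, 6.96 and 6.62, overlapped the controls (adjusted p = 0.184). Irak2, a kinase below these receptors, was higher with MCTP (0.42, adjusted p = 0.00215), at 0.018 with shNsd2 (adjusted p = 0.746), and the treatments differed by -0.41 (adjusted p = 0.000992). With MCTP, 2 genes of the list were higher and 2 lower of 14 tested, a median of 0.013 beside -0.0062 over all genes, of which 35.2% were called, and 4 were higher under GC correction.

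Of the list of CXC chemokines and their receptors, which also holds the CX3C chemokine Cx3cl1, 7 of 19 genes were tested. With shNsd2, 4 were higher (Cxcl1, Cxcl10, Cx3cl1 and Cxcl16) and 1 lower, beside 23.1% and 24.8% of all genes, a median of 0.20, with the same counts under each scaling and GC correction. These rescalings leave out no library, and the Cxcl1 call was lost without single libraries, as given above. The fall was that of Cxcl15, a chemokine first known from lung epithelium. Cxcl15 had log2 expression of 9.20, 8.97 and 9.13 in control, 9.20, 9.24 and 9.16 in MCTP, and 7.96, 7.90 and 7.93 in shNsd2 libraries. The shNsd2 libraries lay far below the others, and control and MCTP libraries overlapped. The log2 fold change was -1.17 with shNsd2 (standard error 0.061, limma adjusted p = 2.84e-06) and 0.10 with MCTP (adjusted p = 0.272), and the difference between the treatments was -1.27 (adjusted p = 1.45e-05). The size is close to that of Il33, and Cxcl15 mRNA was at 45.5%, 43.4% and 44.5% of the control mean in the shNsd2 libraries. Cxcl10, an interferon-induced chemokine of low level here, was higher with shNsd2 (0.28, adjusted p = 6.78e-05), and so was Cx3cl1, a membrane-bound chemokine (0.22, adjusted p = 0.00383). Cx3cl1 was also higher with MCTP (0.34, adjusted p = 0.00461), where Cxcr7, a scavenger receptor of Cxcl12, was lower (-0.25, adjusted p = 0.00990, and 0.0550 without control 2), 1 gene in each direction, beside 18.0% and 17.2% of all genes, and a median of 0.034. Under GC correction 3 genes of the list were higher and 1 lower with MCTP (median 0.14), and 2 were higher after median centring. Cxcl10 shares 133 bases of exon with Art3 and Cxcl16 shares 552 with Zmynd15, and whether reads were counted by strand is not given in the sources used here, so both are uncertain.

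Of the CC chemokines and their receptors, 7 of 21 were tested, with 2 higher and 2 lower with shNsd2 (median 0.019) and 2 higher with MCTP, Ccl7 and Ccl9 (median 0.069), beside 47.8% and 35.2% of all genes called. The lower genes with shNsd2 include Ccr1, which passed the filter only through its control libraries. The MCTP median was 0.26 under GC correction, with 2 higher and 1 lower, and 0.023 after quantile normalization, with 1 higher. Ccl9, a chemokine for myeloid cells, was the most changed. It stood at 5.15, 5.09 and 5.15 in control, 5.30, 5.27 and 5.32 in shNsd2, and 5.78, 5.67 and 5.72 in MCTP libraries. The groups formed separate steps, with MCTP highest. Ccl9 rose by 0.59 on the log2 scale with MCTP (standard error 0.041, limma adjusted p = 0.000102) and by 0.16 with shNsd2 (adjusted p = 0.00248), and the treatments differed by -0.43 (adjusted p = 0.000202). Cd68 moved in the same order, and its part in the Ccl9 values was not tested. The other calls were small: Ccl5 was higher with shNsd2 (0.13, adjusted p = 0.00217) and Ccl25 was lower (-0.11, adjusted p = 0.0185). Ccl25, which shares 204 bases of exon with Elavl1 on the other strand, lost its call without control 2 (adjusted p = 0.0548) and without shNsd2 2 or 3 (0.0579 and 0.0588), and also under GC correction (0.234), in a fit of all 9 libraries (0.0644) and without the 3 libraries that stand apart (0.0867). Ccr1 lies so close to the filter that it was not tested without control 1, 2 or 3. Under GC correction 2 of 6 genes tested were higher with shNsd2 and none (0) lower.

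Of the colony stimulating factors and their receptors, 4 of 8 were tested. With shNsd2, Csf1 and Csf2 were higher and Il34, the other ligand of the Csf1 receptor, was lower (median 0.054), beside 47.8% of all genes called. Il34 stood at 8.06, 8.23 and 8.32 in control and 8.00, 7.94 and 7.94 in shNsd2 libraries, groups that did not overlap (-0.24, standard error 0.065, limma adjusted p = 0.0136). The ligands of that receptor thus moved in opposite directions, though the Csf1 call was lost without shNsd2 1 or 2. With only the library that names Nsd2 in both labels, Il34 was at -0.20 and neither ligand was called. Csf2, which drives granulocyte and macrophage growth, was higher with shNsd2 by 0.13 (adjusted p = 0.0301), a call lost without shNsd2 1 or 3 (adjusted p = 0.0934 and 0.0754). Csf2 was at 0.082 without control 1 (0.0488) and at 0.076 without the 3 libraries that stand apart (0.0787), and without the mean-variance trend the adjusted p was 0.0526. With MCTP the receptor chain Csf2ra was higher (0.22, adjusted p = 0.0227), a call lost without control 1, 2 or 3 (0.0683, 0.0736 and 0.0749) and under GC correction (0.245), and the median was 0.012, with 35.2% of all genes called. Under GC correction 1 gene of the list was lower and none (0) higher with MCTP, and the shNsd2 median was 0.0078.

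Of the IL-6 family, its receptors and JAK-STAT3 signalling, 15 of 19 genes were tested. With shNsd2, 2 were higher (Pias3 and Tyk2) and 6 lower, with a median of 0.024, beside 23.1% higher and 24.8% lower of all genes. The lower genes were Il6ra, Il11ra1, Jak1, Stat3, Il6st and Jak2. Under GC correction none (0) was higher and 5 were lower, and the lower genes were 5 after quantile normalization and 4 after median centring. The Pias3 and Tyk2 calls with shNsd2 were lost without control 2 (limma adjusted p = 0.0585 and 0.0730), control 3 (0.122 and 0.0622), shNsd2 1 (0.121 and 0.0508) or shNsd2 2 (0.153 and 0.101). Jak2, a kinase bound to cytokine receptors, stood at 9.72, 9.56 and 9.51 in control and 9.16, 9.11 and 9.29 in shNsd2 libraries, with no overlap (-0.41, standard error 0.067, limma adjusted p = 0.00114). In MCTP libraries it was 9.20, 9.58 and 9.07, where MCTP 2 lay among the controls (-0.32, adjusted p = 0.0889). With MCTP, 4 genes were higher and 4 lower (median 0.072), or 6 and 2 after centring on medians, beside 35.2% of all genes called. The MCTP median was 0.017 under GC correction and 0.024 after quantile normalization. Pias3, an inhibitor of STAT3, was higher (0.32, adjusted p = 0.00457) and so was the kinase Tyk2 (0.27, adjusted p = 0.0111, and 0.0546 and 0.0570 without control 2 or MCTP 1), though Tyk2 was at 0.17 under GC correction. Socs3, a feedback inhibitor induced by this pathway, was lower in the same libraries as Lif, at 8.91, 8.73 and 8.69 against 9.04, 9.01 and 9.07 in control. The groups did not overlap (-0.26, adjusted p = 0.0230), and the call was lost without control 1, 2 or 3 (0.0714, 0.0669 and 0.0816) or MCTP 3 (0.0635). With only the library numbered 39, Socs3 was at -0.13 (adjusted p = 0.163). Between the treatments Socs3 differed by 0.29, higher in shNsd2 (adjusted p = 0.0125, and 0.0576 without shNsd2 2). Stat3 itself was higher with MCTP (0.17, limma adjusted p = 0.0496, close to the threshold) and lower with shNsd2 (-0.22, adjusted p = 0.00217). Between the treatments Stat3 differed by -0.39 (adjusted p = 0.000745). It shares 72 bases of exon with Stat5a on the other strand and is uncertain to that extent.

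Of the NF-kB factors and feedback genes, which drive many of these chemokines, 17 of 18 were tested. With shNsd2, 7 were higher and 3 lower (median 0.093), or 5 and 3 under GC correction, beside 47.8% of all genes called. With MCTP 3 were higher and 1 lower (median -0.0038), beside 35.2%. The lower genes with shNsd2 were Nfkb1, Birc3 and Nfkbia (-0.25, -0.22 and -0.18, limma adjusted p = 0.000366, 0.00571 and 0.00604). The lower gene with MCTP was again Nfkb1 (-0.28, adjusted p = 0.00533). Nfkbib, an inhibitor that holds NF-kB in the cytoplasm, was higher with shNsd2 (0.32, standard error 0.052, limma adjusted p = 0.00124), but it shares 314 bases of exon with Ccer2 and 42 with Sirt2 on the other strand and is uncertain for that reason. Rela, the p65 subunit, was higher with shNsd2 (0.19, adjusted p = 0.0134) and with MCTP (0.29, adjusted p = 0.0219), but the shNsd2 call was lost without shNsd2 1 or 2 (0.0552 and 0.0525). The MCTP call was lost without control 1 or 2 (0.0795 and 0.0611) and without MCTP 1 or 3 (0.0825 and 0.0556), and under GC correction Rela was at 0.12 with shNsd2 and 0.18 with MCTP. Icam1, an adhesion molecule that NF-kB induces, stood at 9.45, 9.49 and 9.48 in control, 9.73, 9.70 and 9.59 in shNsd2 libraries, and its MCTP mean was 9.92 ± 0.099 (SD, n = 3) with the lowest library at 9.81. The groups were separate, with MCTP highest (0.20, adjusted p = 0.00692 with shNsd2, and 0.45, adjusted p = 0.00210 with MCTP). Ikbkg, the regulatory subunit of the IkB kinase, had a mean of 12.02 ± 0.028 in MCTP libraries (SD, n = 3), each above all control and shNsd2 libraries, which lay between 11.25 and 11.32. Its log2 fold change was 0.73 with MCTP (adjusted p = 7.74e-05) and -0.017 with shNsd2 (adjusted p = 0.714). Ikbkg shares 418 bases of exon with G6pdx on the other strand, and G6pdx, a gene named here for that overlap after its values were seen, was lower with MCTP (-0.22, adjusted p = 0.0496), a call lost without control 1, 2 or 3 (0.0874, 0.150 and 0.132) or MCTP 1 (0.102), and at -0.14 without MCTP 2 (0.0262).

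Of the RNA-binding proteins that set the decay of cytokine mRNA, all 9 on the list were tested. With shNsd2 none (0) was higher and 3 were lower (median 0.050), with 2 higher under GC correction, beside 47.8% of all genes called. With MCTP 1 was higher and 2 lower (median -0.12), beside 35.2%, or 1 higher and 3 lower under GC correction (median -0.025). Hnrnpd, which encodes AUF1, had log2 expression of 13.07, 13.01 and 12.95 in control, 12.88, 12.83 and 12.80 in shNsd2, and 12.48, 12.54 and 12.41 in MCTP libraries. The groups were separate, with MCTP lowest. Hnrnpd had a log2 fold change of -0.54 with MCTP (standard error 0.057, limma adjusted p = 0.000644) and -0.17 with shNsd2 (adjusted p = 0.00818), and the treatments differed by 0.36 (adjusted p = 0.00144). Zfp36l2 followed the same order (-0.48, adjusted p = 0.00127 with MCTP, and -0.12, adjusted p = 0.0117 with shNsd2, the latter 0.0698 without shNsd2 2), and the treatments differed by 0.36 (adjusted p = 0.00259). Its relative Zfp36, tristetraprolin, was higher with MCTP (0.24, adjusted p = 0.0227), a call lost without control 1, 2 or 3 (0.0866, 0.0680 and 0.0511) or MCTP 1 or 3 (0.0921 and 0.0630). Zfp36l1 was lower with shNsd2 (-0.21, adjusted p = 0.00323) and at 0.027 with MCTP (adjusted p = 0.779). Zfp36l1, Hnrnpd, Zfp36 and Zfp36l2 share 1672, 385, 125 and 105 bases of exon with other annotated genes on the opposite strand. The same holds for Tyk2, Il1rap, Icam1 and Irak2 (554, 552, 511 and 196 bases), for Krt8 (101 bases), Csf2 (96 bases) and Il34 (22 and 75 bases), so all of these are uncertain to that extent.

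**Figure D2:**
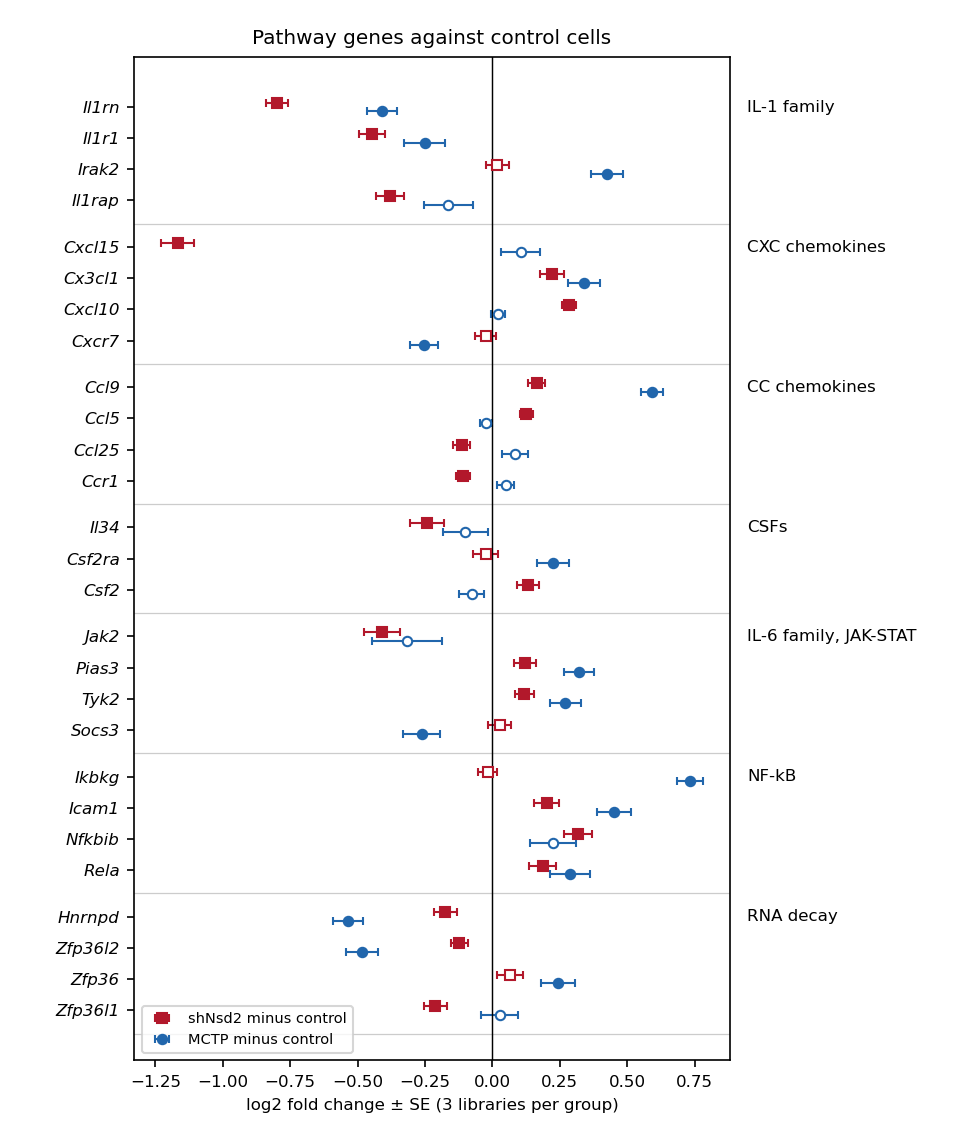
Log2 fold change (horizontal axis, with its standard error) of the genes named from each pathway list in shNsd2 (red squares) and MCTP cells (blue circles) against control, n = 3 libraries per group; filled marks have a limma adjusted p under 0.05. Cxcl15 (-1.17) and Il1rn (-0.80) fall furthest with shNsd2, and Ikbkg (0.73) and Ccl9 (0.59) rise furthest with MCTP.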

How the data were processed

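The authors deposited a table of variance-stabilized expression values on the log2 scale for 12842 genes, and 3 of its 12 value columns were not used. The submitters' notes name bcl2fastq 1.8.4, TopHat, Cufflinks, DESeq, DESeq2 and the genome build mm9, without stating the part of each. From these values, each pair of groups was fitted in limma (R 4.3.3, limma 3.58.1) with a mean-variance trend, p-values were adjusted across the tested genes by the Benjamini-Hochberg method, and a gene was called at an adjusted p under 0.05. Genes entered a comparison if they exceeded 3.78, the median of the lowest 10% of values, in at least 3 of its 6 libraries. From each pathway list, up to 4 further called genes were named, those with the largest change against control in either comparison. Members and lists were chosen with earlier results of these data known. Gene coordinates, exon lengths and GC content came from GENCODE M21 (GRCm38), matched by Ensembl identifier for 12513 genes (97.4%). Promoters came from RefSeq (GRCm38.p6). The scripts were tested on simulated data. Figures were drawn in Python 3.11.15 with matplotlib 3.10.9. Some alleles of the model and some marker genes are not reported here.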

Additional observations from a re-analysis of the deposited data

How the results depend on the processing

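Values were refitted under alternatives chosen with the design, and without the 3 libraries that stand apart by GC content, an alternative added after the data had been seen. The latter leaves out libraries chosen by their deviation, which tends to lower the spread, so its counts and adjusted p are no check of a call. Of the counts of calls over genes or members, 26 moved by over 1.5 times and 62 did not, and the cause was not tested. Libraries share numbers only, and same-number deviations had mean correlations of -0.25, -0.19 and -0.36, so no pairing was used. With a replicate block, 4515 genes were called with shNsd2, 3399 with MCTP and 3794 between them, and 1, 2 and 2 members. The block ended the call of Csf1 with shNsd2 (adjusted p = 0.0636 in limma, range 0.00862 to 0.154) and that of Cxcl1 between treatments (0.122, range 0.00893 to 0.170). It also ended those of Csf2, Zfp36l2, Pias3 and Tyk2 with shNsd2 (0.0501, 0.0666, 0.0749 and 0.0848), of Krt8 with shNsd2 (0.0522) and of Il1r1, G6pdx and Krt19 with MCTP (0.0571, 0.0810 and 0.0607). A fit of all 9 libraries and median centring ended the call of Cxcl1 between treatments (0.0638 and 0.0519, range 0.00893 to 0.170). With shNsd2, the Ccl2 fold change turned to 0.023 after quantile normalization, 0.017 after median centring, 0.060 after GC correction, 0.018 with only the library that names Nsd2 in both labels and 0.097 without the 3 libraries. Under GC correction Il1rl1 was at 0.0098 and Cxcl5 at 0.0060. Lif turned to -0.028 under GC correction, -0.031 with the single library and -0.065 without the 3 libraries, and Ccl7 to -0.022 and -0.0054 in the latter fits. The single library, assumed to vary as the other group does, left 2842 genes and 0 members called, with adjusted p of 0.285 for Cxcl1 (range 0.00155 to 0.285) and 0.154 for Csf1 (range 0.00862 to 0.154). With MCTP, Cxcl5 turned to -0.013 after quantile normalization, and Il1rl1 to 0.033 after median centring, 0.13 under GC correction and 0.013 without the 3 libraries. With only the library numbered 39, Cxcl1 was at -0.0016 and Ccl2 at -0.030, and 1 member was called. Quantile normalization left 1 member called with MCTP, and GC correction gave 4 with MCTP and 5 between treatments, where Cxcl5 was at -0.19 (adjusted p = 0.0252, range 0.0252 to 0.360) and Il1rl1 at -0.12 (adjusted p = 0.0480, range 0.0480 to 0.922). Median centring gave Cxcl5 -0.077 between treatments (adjusted p = 0.0406, range 0.0252 to 0.360). GC correction left Nsd2 at -0.12 with MCTP (adjusted p = 0.0775, range 2.77e-06 to 0.0775), and Il33 at -0.94 between treatments. Leaving out 1 library at a time, fold changes with shNsd2 ran from -0.11 to 0.11 for Ccl2, -0.036 to 0.032 for Lif and -0.0082 to 0.040 for Ccl7. With MCTP they ran from -0.023 to 0.025 for Il1rl1, -0.031 to 0.088 for Cxcl1, -0.012 to 0.056 for Cxcl5 and -0.041 to 0.18 for Ccl2. Between treatments Ccl2 ran from -0.12 to 0.014. Members called ran from 0 to 2 with shNsd2, 1 to 2 with MCTP and 1 to 3 between treatments. Genes called ran from 2029 to 7372 with MCTP and from 3361 to 7756 between treatments, and 7555 were called with MCTP without the 3 libraries. The single library with Nsd2 in both labels also ended the shNsd2 calls of Il34 (0.203), Cx3cl1 (0.101), Ccl9 (0.0501), Rela (0.0797), Hnrnpd (0.193), Zfp36l2 (0.186), Ccr1 (0.112), Ccl25 (0.272), Csf2 (0.126), Pias3 (0.154), Tyk2 (0.261), Krt8 (0.302), Krt19 (0.0934) and Cdh1 (0.0857). The library numbered 39 alone ended the MCTP calls of Csf2ra (0.0813) and G6pdx (0.0670). The fit of all 9 libraries ended the shNsd2 calls of Rela (0.0504), Zfp36l2 (0.0834), Pias3 (0.0796), Tyk2 (0.0826) and Krt8 (0.103). GC correction ended those of Pias3 and Tyk2 (0.0793 and 0.144), quantile normalization that of Pias3 (0.0540), and G6pdx was lost with MCTP after median centring and without the trend (0.106 and 0.0530). List medians near 0 changed sign: with shNsd2 the IL-1 family turned to 0.0091 and 0.013 after quantile normalization and median centring, and the IL-6 family to -0.032 under GC correction. With MCTP the IL-1 family turned to -0.015 after quantile normalization, and NF-kB genes to 0.030 after median centring and 0.0021 under GC correction. The MCTP median of the RNA-binding proteins was -0.025 and that of the IL-6 family 0.017 under GC correction.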
